A study of Danio rerio with 24 samples.

Results

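The genes of the circadian clock and of its direct outputs were followed across the whole brains of adult zebrafish that carry deletions in neurexin genes. The 37 members are rows of the deposited count table whose Ensembl identifier carries one of 37 listed symbols, of 37241 rows in all. They were sorted by role into 10 genes of the positive arm, 15 genes of the per/cry arm, 3 REV-ERB genes and 9 genes of the PAR bZIP family and its NFIL3 antagonists. All 37 entries found an identifier, 16 under a zebrafish symbol and 21 under a symbol in capitals, and 36 were expressed highly enough to be tested. For CLOCK, BMAL1, PER1 and CRY1 the symbol belongs to a pair of identifiers and the symbol tables do not say which is the a and which the b paralog, so the pairs are called i and ii here: CLOCK i is ENSDARG00000003631 and CLOCK ii ENSDARG00000011703, BMAL1 i is ENSDARG00000006791 and BMAL1 ii ENSDARG00000035732, PER1 i is ENSDARG00000012499 and PER1 ii ENSDARG00000056885, and CRY1 i is ENSDARG00000011583 and CRY1 ii ENSDARG00000045768.

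The vertebrate clock is a feedback loop of transcription. CLOCK and BMAL proteins pair up and switch on genes that carry an E-box, among them the period (per) and cryptochrome (cry) genes, whose proteins return to the nucleus and repress their own activators. A second loop acts on the bmal1 genes, which ROR receptors activate and REV-ERB receptors (nr1d1 and its relatives) repress. The PAR bZIP factors DBP, TEF and HLF are themselves clock-driven and carry the rhythm to further genes through the D-box, where NFIL3 proteins oppose them. In zebrafish most tissues hold clocks that respond to light directly, and several clock genes are induced by light as well as by the loop.

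Poly(A) RNA-seq was run on whole brains, taken after the eyes had been removed, from 7 mutant lines and from wild type (wt), all in the AB background and all with 3 libraries. Of these lines 4 are described by name here, with the wt libraries, while the libraries of all lines entered the fits. Each of the 4 is homozygous for CRISPR/Cas9 deletions in both paralogs of a neurexin, the presynaptic adhesion receptors of the synapse: nrxn2a_full:nrxn2b_full and nrxn3a_full:nrxn3b_full lack the whole loci (nrxn2 full and nrxn3 full below), and nrxn2a_tmr:nrxn2b_tmr and nrxn3a_tmr:nrxn3b_tmr lack the part of the last exon that encodes the transmembrane region (nrxn2 tmr and nrxn3 tmr below). The lines were dissected within the same few days, but the time of day at which a brain was taken, its age in days and whether a library holds 1 brain or several are not given in the sources used here. Nothing states that the 3 libraries of a line came from separate fish, so the p-values below measure the spread between these libraries, which may be technical.

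The libraries held 28512102 to 39342435 counts each. The targeted neurexin genes were lower in their full lines than in every other library: nrxn3b had 0 to 4 counts in nrxn3 full and 2837 to 4445 in wt. The other targeted genes were reduced but kept counts: nrxn2a had 348 to 386 in nrxn2 full, against 2946 to 4611 in wt, nrxn2b 1948 to 2314, against 5683 to 7330, and NRXN3 (the nrxn3a locus) 1327 to 1449 in nrxn3 full, against 10012 to 14513. Neuronal markers summed to 329138 to 384310 normalised counts over all 24 libraries. Markers of the retina were present despite the removal of the eyes, at 303 to 29762 normalised counts in the mutant libraries and 12131 to 59113 in wt. A normalised count here is the deposited count divided by the DESeq2 size factor of its library. In whole brain, fewer cells of a type and less RNA per cell cannot be told apart.

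The strongest pattern among the clock genes lay between libraries and not between genotypes. In 5 libraries nr1d1 (ENSDARG00000033160), the REV-ERBα gene, stood at 204 to 293 normalised counts, against 2664 to 4846 in the other 19, a 9.09-fold step between the nearest libraries. Of the 5, 4 were replicate 4 of nrxn3 full, replicates 4 and 5 of nrxn3 tmr and replicate 5 of wt, by the numbers in the labels, and the fifth belonged to a mutant line not described here. The 5 were picked by this gap in nr1d1, so what follows about them is a description without a test. Their total counts, 30540696 to 38963748, lay within the range of all libraries.

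In nr1d1 the low libraries came from both mutant and wild-type fish. The values were 3697, 3372 and 254 in nrxn3 full and 3831, 252 and 262 in nrxn3 tmr, against 4001, 3932 and 204 in wt. Low libraries were therefore 2 of 3 in nrxn3 tmr and 1 of 3 each in nrxn3 full and wt. The nrxn2 lines had none, with 4059, 4699.7 and 3841 in nrxn2 full and 4469, 3335 and 2664 in nrxn2 tmr.

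The negative limb of the clock moved with nr1d1 in the same 5 libraries. In 13 of the 15 per/cry arm genes all 5 lay below all 19, and the exceptions were cry3a and fbxl3a, which encodes a ubiquitin ligase subunit that targets cryptochromes. The largest steps were those of ciarta, whose mammalian counterpart CIART (CHRONO) represses CLOCK and BMAL1, at 83.9 to 119 in the 5 and 1440.1 to 2329 in the 19, and of PER1 ii at 112 to 231 and 1313 to 2658. PER1 i lay at 2468 to 3094 against 9104 to 12062, per2 at 3708 to 4233 against 7683 to 12659, and per3 at 2588 to 6932 against 12201 to 24678.

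The cryptochromes followed, with smaller steps between the nearest libraries than in ciarta or PER1 ii. CRY1 i had 649 to 964 normalised counts in the 5 and 1667 to 3337 in the 19, CRY1 ii 5264 to 6122 and 8522 to 10834, and cry2 1193 to 1436 and 2844 to 3903. For cry5, which encodes a photolyase-like member of the family, the values were 130 to 237 and 698 to 1130.3. The kinase genes csnk1da and csnk1db, whose products phosphorylate PER proteins, and bhlhe40, an E-box repressor, also placed the 5 lowest, but with steps of only 1.02-, 1.14- and 1.07-fold. They lay at 3859.6 to 4397 against 4472 to 5465, 5423 to 5627 against 6424 to 8061 and 13928 to 15246 against 16358 to 19073. The exception cry3a ran the other way with a slight overlap, at 2369 to 2841 in the 5 and 1355 to 2397 in the 19. The exception fbxl3a overlapped more widely, at 172 to 264 and 126 to 228. The repressor gene bhlhe41 lay at 376 to 1652 in the 5 and 2033 to 4266 in the 19.

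All 3 REV-ERB genes shared the split. Beside nr1d1, nr1d2b lay at 6782 to 8616 in the 5 and 17593 to 20531 in the 19, and nr1d2a at 1049 to 2953 and 3597 to 8790.2. A few members ran the other way: BMAL1 i stood at 2059 to 2586 in the 5 libraries and 1035 to 1479.8 in the 19, and nfil3-5, one of the NFIL3 genes, at 172 to 337 and 52.7 to 102. With rorca, a ROR receptor gene at 92.1 to 108 and 1.87 to 71.3, these were the 3 members in which the 5 lay above all others.

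**Figure D1:**
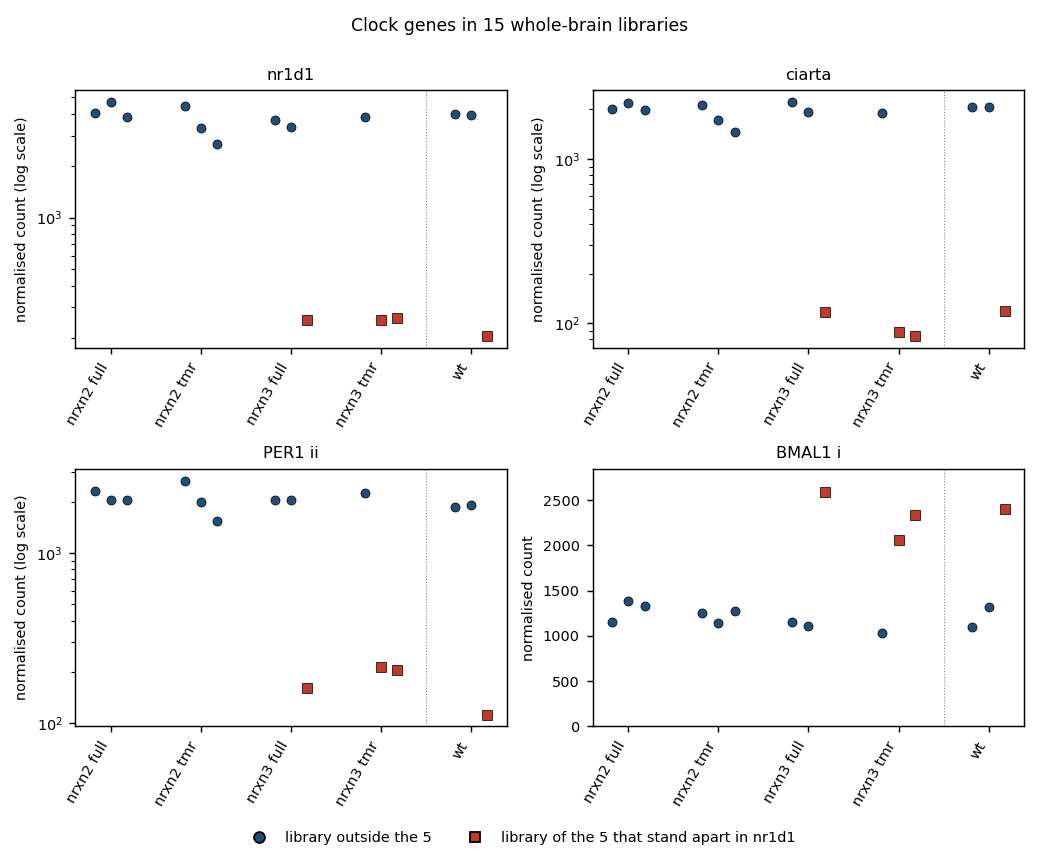
Normalised counts of nr1d1, ciarta and PER1 ii (log axes) and of BMAL1 i (linear axis from 0) in the 15 libraries of the 4 described lines and wt, grouped by genotype with the mutant lines left of wt. Each point is a library, and squares are the 4 of the 5 apart that belong to these groups. The squares sit lowest for nr1d1 (at most 262), ciarta and PER1 ii and highest for BMAL1 i.

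The rest of the positive arm and most output genes did not fully separate the 5. CLOCK i, CLOCK ii, BMAL1 ii, bmal2, roraa, rorab and rorb overlapped between the 5 and the 19, as did 7 of the 9 PAR bZIP and NFIL3 genes. In some of them the overlap was slight. The output gene nfil3-6 lay at 2260 to 2974 in the 5 and 2881 to 5538 in the 19. For tefb the values were 2063 to 3372 and 3092 to 6695. CLOCK ii leaned the other way, at 771 to 1058 and 485 to 895. Others overlapped widely, such as roraa at 4856.5 to 7581 and 5063 to 9414. Within each of wt, nrxn3 full and nrxn3 tmr, however, the libraries apart held the highest values of CLOCK ii, BMAL1 ii and the low-count bmal2. For BMAL1 ii these were 756 against 256 and 317 in wt, and 274 against 173 and 169.5 in nrxn3 full. In nrxn3 tmr they were 689 and 836 against 413. Among the outputs dbpa alone placed all 5 lowest, at 1482 to 1845 against 3296 to 4515. Its paralog dbpb lay at 234 to 599.9 in the 5 and at 26.2 to 1516 in the 19. In the libraries of the 4 described lines and wt that were outside the 5 it stood at 1088 or above.

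Among the members tested, 17 of 36 (47.2%) had the 5 libraries lowest and 3 (8.33%) had them highest. Over the 17466 genes with a mean of at least 50 normalised counts, the shares were 0.584% (102 genes) and 0.303% (53 genes). Of the 22 genes whose step was at least 0.5 on the log2 scale, 12 were members, and of the 12 genes with a step of at least 1, 6 were. Since nr1d1 defined the 5, and clock genes are known to vary together, these shares are a description.

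Of 5 light-induced repair genes, 3 had the 5 libraries below the 19, among them cry-dash at 219 to 309.6 against 997 to 1704. The sums over the marker lists did not divide the libraries in this way. Summed neuronal markers ranged over 329138 to 352850 in the 5 libraries and 338541 to 384310 in the 19, astroglial markers over 199906 to 230941 and 190492 to 272383, and pineal markers over 334 to 7487 and 320.5 to 12220.5. Summed immediate early genes, which report recent neuronal activity, were 7425 to 9069 and 7859.5 to 26991. A sum can hide single genes: in that list ier2b had the 5 below the 19, at 231 to 327 against 348 to 1277. The part of these in the split was not tested.

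**Figure D2:**
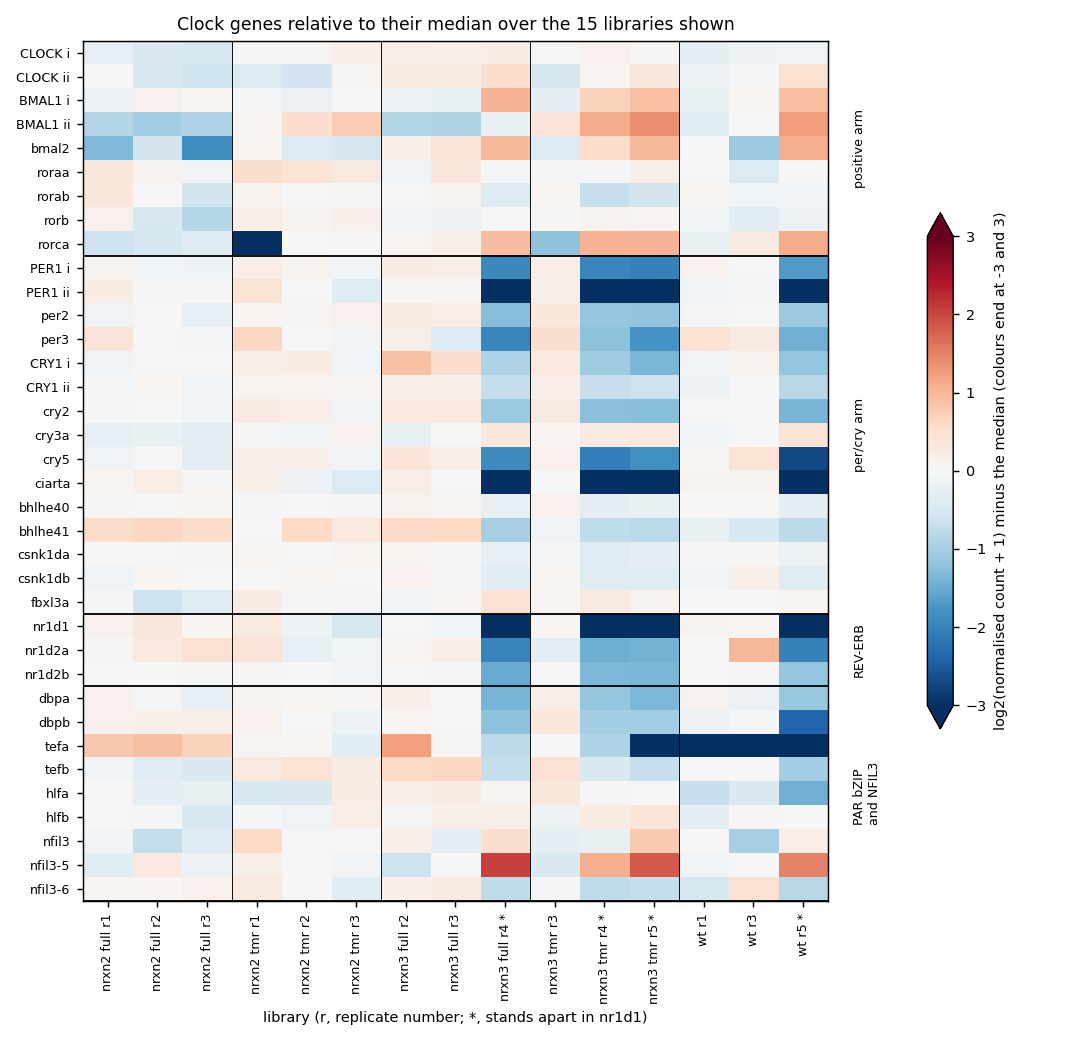
Heat map of the 36 tested clock genes (rows, by arm) over the 15 libraries of the 4 described lines and wt (columns, by genotype), coloured by log2(normalised count + 1) minus the median of the gene over these libraries, with blue for lower and red for higher. The 4 starred libraries, those of the 5 apart that belong to these groups, are blue through most per/cry rows and all REV-ERB rows and red for BMAL1 i, rorca and nfil3-5, and the tefa row is dark blue in wt and replicate 5 of nrxn3 tmr.

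The clock genes therefore varied widely within a genotype. The median standard deviation between libraries of one genotype was 0.516 on the log2 scale for the members and 0.194 for the 17466 genes. By role it was 0.815 for the REV-ERB genes (0.56 to 1.64), 0.598 for the per/cry arm (0.114 to 1.73), 0.455 for the PAR bZIP and NFIL3 genes (0.183 to 1.21) and 0.287 for the positive arm (0.0999 to 1.05). Of the variation of a member, a median of 31.5% lay between genotypes, against 51.5% over the 17466 genes. With 3 libraries per genotype, differences between libraries alone give part of such a share, so it does not by itself measure a genotype effect.

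The mutant lines were then each compared with wt to ask which clock genes differ with the loss of a neurexin. With edgeR's quasi-likelihood test and Benjamini-Hochberg adjustment over 23641 genes, 2 or 3 of the 36 tested members passed an adjusted p of 0.05 in each of the 4 described lines. They were 2 in nrxn2 full, where 9.65% of all genes passed, 2 in nrxn2 tmr (8.48%), 3 in nrxn3 full (8.13%) and 2 in nrxn3 tmr (7.32%). The members' shares, 5.56% for 2 and 8.33% for 3, were near those of all genes. Without replicate 1 of nrxn2 full the number was 5 in nrxn2 full (13.9% of members) and 3 in nrxn2 tmr (8.33%), while the share of all genes was 19.3% and 9.28%. Across these comparisons, which share the same wt libraries, 5 members passed at least once: the output genes hlfa and tefa, and CLOCK i, BMAL1 ii and roraa of the positive arm.

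No gene of the per/cry arm and no REV-ERB gene passed in any line by edgeR or by DESeq2. At an unadjusted p under 0.05, edgeR had 2 per/cry genes in nrxn2 full, and no REV-ERB gene in any of the 7 lines. The genes that separated the 5 libraries most, such as nr1d1, ciarta and PER1 ii, were therefore not among those called between genotypes, and the spread that the split gives them within a genotype limits the size of difference that could be detected.

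The output gene hlfa (ENSDARG00000074752), which encodes the PAR bZIP protein hepatic leukaemia factor, rose in both nrxn3 lines. It had 6433, 6655 and 5937 normalised counts in nrxn3 full and 7174, 5765 and 5727 in nrxn3 tmr. All of these lay above the 3507, 4189 and 2086 of wt.

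The log2 fold changes of hlfa over wt were 0.96 in nrxn3 full (SE 0.202, edgeR adjusted p = 0.00633) and 0.93 in nrxn3 tmr (SE 0.202, adjusted p = 0.00796). Both nrxn2 lines pointed the same way without passing: nrxn2 full had 5659.7, 4626 and 4839 (log2 fold change 0.63, adjusted p = 0.0557), and nrxn2 tmr had 4097, 4157 and 6587 (0.60, adjusted p = 0.0738), of which 2 values lay below the highest of wt. DESeq2 called both, with adjusted p = 0.0173 and 0.0266.

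Within wt the lowest hlfa value, 2086, belonged to replicate 5, one of the 5 libraries apart. Without those 5 the differences of hlfa became smaller, at 0.77 in nrxn3 full (edgeR adjusted p = 0.040), and nrxn3 tmr, with 1 library left, no longer passed (0.90, adjusted p = 0.0651). In fits to only the 6 libraries of the 2 groups neither line passed, with edgeR adjusted p = 0.0989 in nrxn3 full and 0.155 in nrxn3 tmr. The wt libraries also differed from the lines in other lists: 8 of 12 immediate early genes were lower in the mean of the 7 lines than in wt, where 6.9% of all genes were lower, with sums of 7425 to 13221 in the mutant libraries and 8134 to 26991 in wt. Of 6 skeletal muscle markers tested 4 were lower in that mean, with sums over the list of 102 to 244 and 135 to 2339. Of 10 retina markers, 2 were lower in that mean, one of them opn1lw1, and opn1sw2, opn1mw1, opn1lw1 and rcvrna were at 0 in at least 1 mutant library, while in wt crygm2d3 alone was at 0. The part of these in hlfa was not tested.

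The related gene tefa (ENSDARG00000039117), which encodes thyrotroph embryonic factor, showed the widest differences of any called member. It had 5909, 6258 and 5423 normalised counts in nrxn2 full, 3562, 3535 and 2681 in nrxn2 tmr and 7929.7, 3452 and 1956 in nrxn3 full, against 128, 135 and 57.4 in wt. In these 3 lines every library lay above every wt library.

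nrxn3 tmr was mixed, with 3372 and 1775 in 2 libraries and 87.9 in replicate 5, inside the wt range. In the 15 libraries of the 4 described lines and wt, tefa thus took either a low level of 57.4 to 135, in 4 libraries, or a high one of 1775 to 7929.7, in 11, with none between.

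The log2 fold changes of tefa over wt were 5.78 in nrxn2 full (SE 0.878, edgeR adjusted p = 0.000509) and 4.94 in nrxn2 tmr (SE 0.846, adjusted p = 0.00141). They were 5.38 in nrxn3 full (SE 0.863, adjusted p = 0.000811) and 4.03 in nrxn3 tmr (SE 0.815, adjusted p = 0.0052). In these 4 lines the call was lost in 1 alternative, the fit of nrxn3 tmr and wt alone (adjusted p = 0.218). Its paralog tefb, at 2063 to 6695 normalised counts over all 24 libraries, passed in no line with all libraries.

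**Figure D3:**
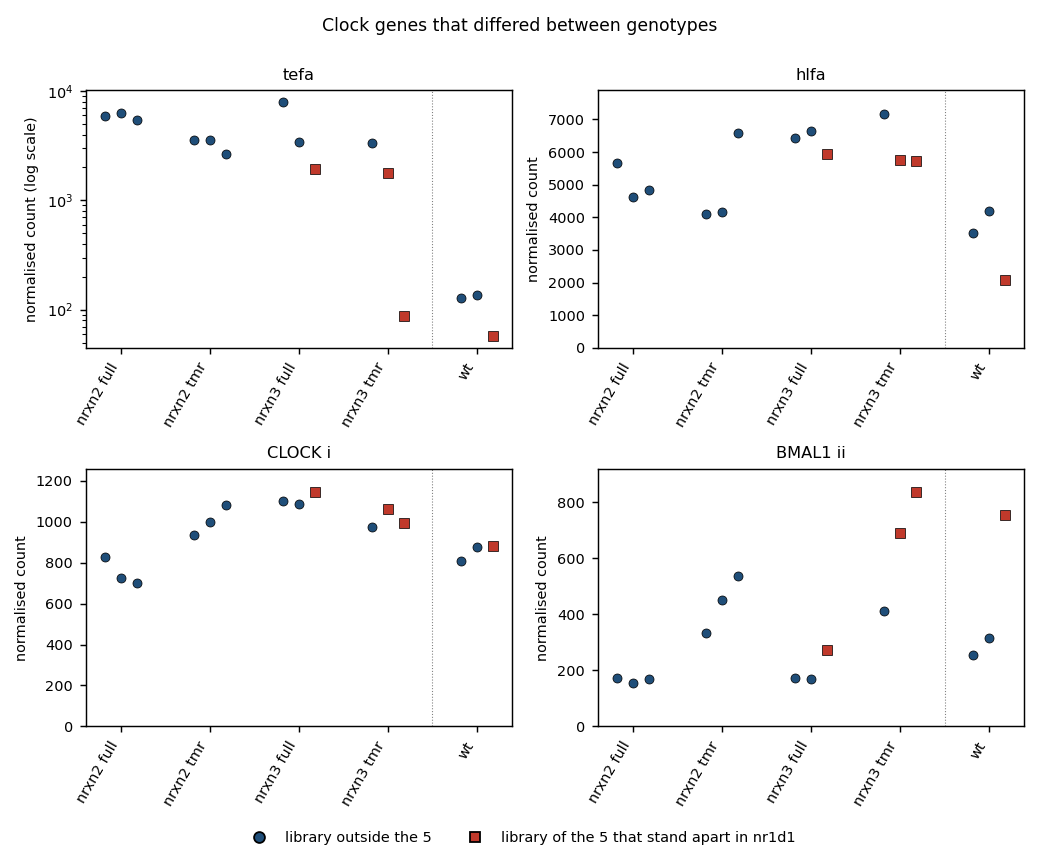
Normalised counts of tefa (log axis), hlfa, CLOCK i and BMAL1 ii (linear axes from 0) in the 15 libraries of the 4 described lines and wt, by genotype with the mutant lines left of wt. Points are libraries and squares are those of the 5 that stand apart. hlfa in the nrxn3 lines lies above all 3 wt values, and tefa takes a low level (57.4 to 135) or a high one (1775 to 7929.7).

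In the positive arm, CLOCK i rose in nrxn3 full by a small amount. It had 1101, 1086 and 1144 normalised counts there, against 809.9, 877 and 884 in wt. The groups did not overlap, and the log2 fold change was 0.37 (edgeR adjusted p = 0.00986). The call was lost only without the 5 libraries apart, where the difference was 0.38 (SE 0.113, adjusted p = 0.0814). In the mean of the 7 lines the log2 fold change was 0.22 (SE 0.0649, adjusted p = 0.0369).

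BMAL1 ii fell in nrxn2 full, with 171, 154 and 167 normalised counts against 256, 317 and 756 in wt (log2 fold change -1.43, SE 0.392, edgeR adjusted p = 0.0271). All 3 libraries lay below wt, but 756 was the value of wt replicate 5, one of the 5 apart. Without that library the difference was -0.80 (adjusted p = 0.182), and it was also lost without replicate 2 or 3 of nrxn2 full. DESeq2 called BMAL1 ii in nrxn3 full too (adjusted p = 0.0412), where it had 173, 169.5 and 274.

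The ROR gene roraa rose in nrxn2 tmr, where it had 9414, 8873 and 8129.6 normalised counts, all above the 6667, 5063 and 6723 of wt. The log2 fold change was 0.52 (SE 0.134, edgeR adjusted p = 0.0213). The call was lost without wt replicate 3 (adjusted p = 0.10) and without replicate 1 (0.0824) or 2 (0.0585) of nrxn2 tmr, and it was kept without the 5 libraries apart (log2 fold change 0.59, adjusted p = 0.0309).

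In the mean of the 7 lines against wt, where 10.5% of genes passed and 3.56% were higher, 3 members passed and all had a positive mean difference. They were tefa (log2 fold change 3.68, SE 0.733, edgeR adjusted p = 0.00358), hlfa (0.90, SE 0.164, adjusted p = 0.00169) and CLOCK i, which was lost without any one of wt replicates 1, 3 and 5 (adjusted p = 0.0717 to 0.194). The mean pools lines that differ, since CLOCK i was at -0.19 in nrxn2 full (adjusted p = 0.16) and tefa passed in 5 of the 7 lines. The median log2 fold change of the 36 members was 0.12, against -0.02 over all genes. Without the 5 libraries apart, 1 of which is wt replicate 5, it was 0.03 over 35 members, against -0.02 over all genes.

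By edgeR the remaining 31 tested members passed in no comparison with wt and in no comparison of a full with a tmr line. npas2, the partner of BMAL in place of CLOCK in mammals, was not tested, with 0 to 4.68 normalised counts in any library. bmal2 was low throughout, at 0.962 to 14.1. The positive-arm genes CLOCK ii, rorab and rorb ranged over 485 to 1058, 134 to 273 and 217 to 476 normalised counts, and the output genes hlfb, nfil3 and nfil3-6 over 365 to 686, 14.1 to 50.9 and 2260.4 to 5538.

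Without the 5 libraries, an alternative chosen after the data had been seen, 35 members were tested and the set of called genes changed. The per/cry arm then had calls: CRY1 i was higher in nrxn3 full, with 3337 and 2570.5 normalised counts against 1723 and 1975 in wt (log2 fold change 0.68, edgeR adjusted p = 0.00821). The groups did not overlap, with 2 libraries left in each.

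The E-box repressor gene bhlhe41 was higher in both nrxn2 full, with 4076, 4266 and 4033, and nrxn3 full, with 4172 and 4208, against 2369.8 and 2033 in wt. The log2 fold changes were 0.91 (edgeR adjusted p = 0.0246) and 0.93 (adjusted p = 0.0359).

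The gene tefb (ENSDARG00000098103), the paralog of tefa, was then higher in nrxn3 full, with 6352 and 6457 against 4199.9 and 4197 in wt (log2 fold change 0.61, edgeR adjusted p = 0.00564). In these 19 libraries the number of members called was 2 in nrxn2 full (6.15% of all genes), 2 in nrxn2 tmr (6.75%), 5 in nrxn3 full (4.62%), 1 in nrxn3 tmr (2.12%, a line with 1 library left) and 3 in the mean of the 7 lines (7.3%). Those in the mean were tefa, hlfa and tefb.

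**Figure D4:**
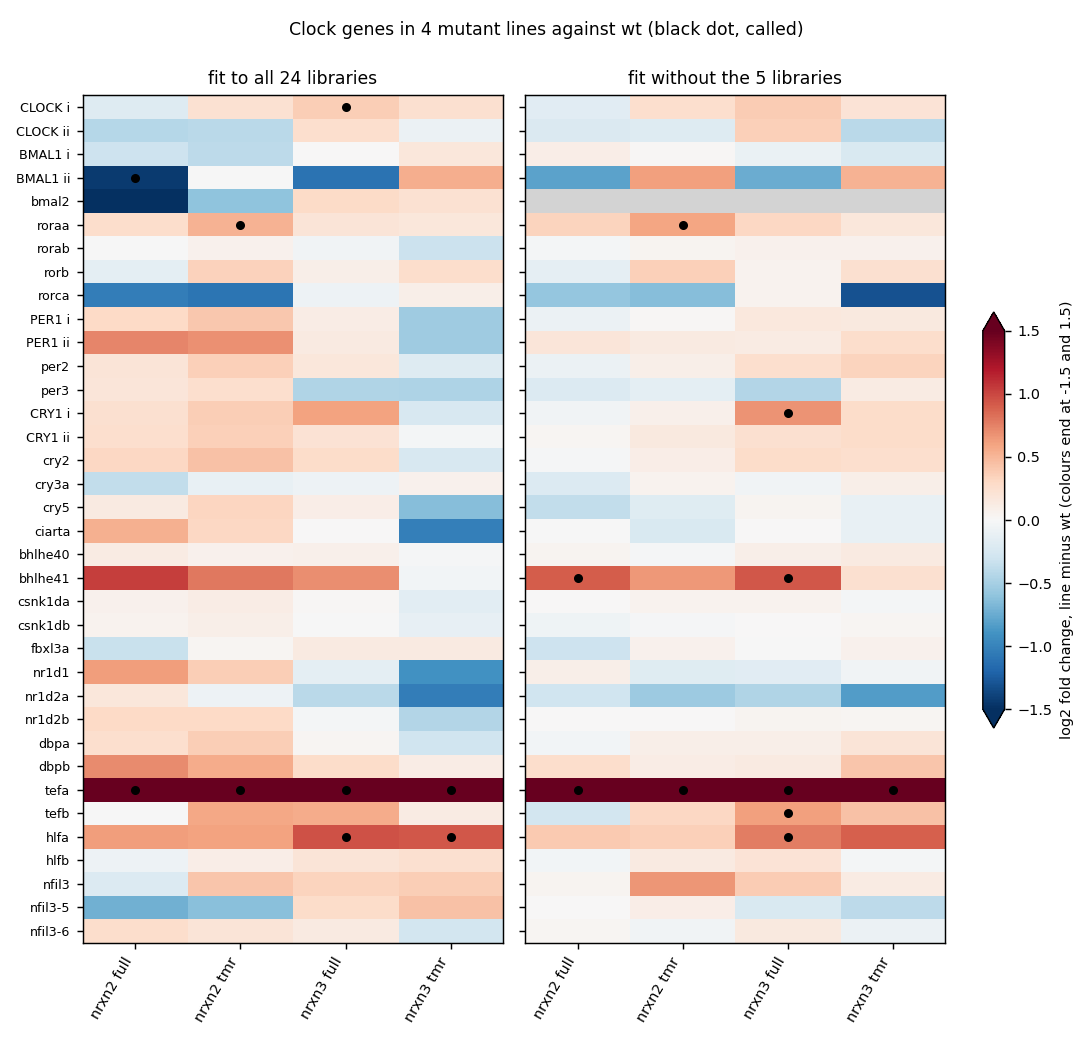
Log2 fold changes (colour) of the tested clock genes (rows) in the 4 described mutant lines over wt (columns), from the edgeR fits with all 24 libraries (left) and without the 5 that stand apart (right). Black dots mark called values and grey marks bmal2, which was not tested on the right. On the left the dots lie on CLOCK i, BMAL1 ii, roraa, tefa and hlfa alone, and on the right on roraa, CRY1 i, bhlhe41, tefa, tefb and hlfa.

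The full deletion was set against the tmr deletion of the same neurexin pair, which leaves wt out of the difference. For nrxn2, where 11.9% of genes passed, CLOCK i and BMAL1 ii were both lower in the full line. CLOCK i had 826, 724 and 701 normalised counts in nrxn2 full and 936, 998 and 1085 in nrxn2 tmr (log2 fold change -0.42, SE 0.0844, edgeR adjusted p = 0.0038). BMAL1 ii had 171, 154 and 167 against 334, 451 and 536 (-1.42, SE 0.391, adjusted p = 0.0252). None of these 6 libraries was among the 5 apart, and neither gene overlapped between the lines. The call of CLOCK i was lost in a fit to those 6 libraries alone (edgeR adjusted p = 0.069). The call of BMAL1 ii was lost without replicate 2 or 3 of either line, with an adjusted p of at most 0.0854. DESeq2 also called rorb, a ROR receptor gene, lower in nrxn2 full, with 427, 281 and 217 against 443, 423 and 435 (adjusted p = 0.0252), and without replicate 1 of nrxn2 full edgeR called 4 members in this comparison (11.1%, against 21.4% of all genes).

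For nrxn3, where 4.76% of genes passed, BMAL1 ii alone was called, with 173, 169.5 and 274 in nrxn3 full against 413, 689 and 836 in nrxn3 tmr (log2 fold change -1.65, SE 0.393, edgeR adjusted p = 0.0194). The libraries apart numbered 1 in nrxn3 full and 2 in nrxn3 tmr, and held the highest value or values of each line. Without the 5 libraries, which leaves nrxn3 tmr with 1 library that is assumed to vary like the other groups, the difference was -1.27 (adjusted p = 0.175), and the call was also lost without replicate 2 or 3 of nrxn3 full or replicate 4 or 5 of nrxn3 tmr. In full against tmr without the 5 libraries, edgeR called 4 members for nrxn2 (CLOCK i, BMAL1 ii, tefa and tefb, with 10% of all genes) and 0 for nrxn3 (1.24% of all genes), where 5 members had an unadjusted p under 0.05.

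A joint test of any difference among the 8 genotypes called 5 of the 36 members (13.9%), against 29.4% of all genes. They were CLOCK i (edgeR adjusted p = 0.00102), BMAL1 ii (0.00602), roraa (0.0258), hlfa (0.00732) and tefa. Among the 7 mutant lines alone, where 26.2% of genes passed, 4 were called, and hlfa was not (adjusted p = 0.212). Without replicate 1 of nrxn2 full the numbers were 8 (22.2%, against 38.9% of all genes) and 7 (19.4%, against 35.5%). With the replicate numbers as a block they were 17 (47.2%, against 22.6% of all genes) and 15 (41.7%, against 20.6%), so that the order of the shares turned round. The 5 libraries apart all carry the numbers 4 or 5. The sources used here do not say what the numbers stand for, and their link to the clock genes was not tested. Without the 5 libraries the numbers were 10 of 35 (28.6%, against 18.1% of all genes) and 9 (25.7%, against 16.2%), with per2, CRY1 i, cry3a, nr1d2a and tefb in both tests. Since the 5 were set apart by nr1d1, a member whose split most per/cry and REV-ERB genes share, the shares without them are a description.

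Whether clock genes moved together from library to library was examined over the 19 above the gap in nr1d1. For genes that share the split, the 5 would set the correlation over all 24, which was not run for these pairs. Pairs such as BMAL1 ii with CLOCK i, which overlap between the 5 and the 19, were held to the same 19. Of 15 pairs of identifiers, 1 passed: per2 and CRY1 ii had Pearson's r = 0.645 (permutation p = 0.00297, adjusted over the 15 pairs 0.0445) and Spearman's rank correlation = 0.604 (p = 0.00693, adjusted 0.052). Without the 2 libraries farthest from the median of per2, r was 0.673. Within genotypes, as deviations from the genotype mean, it was 0.71 (permutation p = 0.015, adjusted 0.0748). In this pair both genes are read from the same libraries, and r did not pass without the wt libraries.

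The pair of PER1 genes with per3 behaved differently. Over the 19 libraries r was 0.287 for PER1 i and 0.153 for PER1 ii with per3, while within genotypes it was 0.764 (permutation p = 0.00069, adjusted 0.00517) and 0.697 (p = 0.00037, adjusted 0.00517). For BMAL1 i with nr1d1, r among the 19 was -0.137 (adjusted permutation p = 0.831). The 19 were selected by nr1d1 itself, which spanned only 2664 to 4846 normalised counts in them. That selection narrows the range, so this r does not test the opposition seen between the 5 libraries and the rest. For per2 with CRY1 i, r was 0.548 (adjusted p = 0.103) and Spearman's rank correlation 0.665 (adjusted 0.0331), with r = -0.08 within genotypes.

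Beyond the members, 33 further genes of the pathway were followed, among them kinases, co-repressors and CREB factors. Of these 6 passed against wt in at least 1 of the 4 described lines and none was higher in such a line. Per line they numbered 2 in nrxn2 full (6.06%), 1 in nrxn2 tmr (3.03%), 3 in nrxn3 full (9.09%) and 2 in nrxn3 tmr (6.06%), shares below or near those of all genes. Of the light-induced repair genes none passed by edgeR in a line, and 1 had an unadjusted p under 0.05, in nrxn3 tmr.

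The co-repressors that REV-ERB recruits in mammals were among those that fell. hdac3, a histone deacetylase gene, had 257, 244 and 216 normalised counts in nrxn3 full, against 581, 586 and 612 in wt (log2 fold change -1.31, edgeR adjusted p = 0.0117). ncor1 had 7.5, 4.32 and 70.8 in nrxn2 tmr, against 3351, 3529.6 and 1724 in wt (log2 fold change -6.73, edgeR adjusted p = 0.0197). Its libraries did not share a level within other lines, with 1883, 66.1 and 88.8 in nrxn3 full and 1973, 1864 and 62.9 in nrxn3 tmr.

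Smaller differences were found for the deadenylase-like gene NOCT i, the mammalian Nocturnin family, with 224, 214 and 163 in nrxn3 full and 204, 209 and 194 in nrxn3 tmr, against 403, 747 and 226 in wt (log2 fold changes -1.19 and -1.18, edgeR adjusted p = 0.0217 and 0.0241). creb1a, a cAMP response factor, had 1148, 1099.7 and 1196 in nrxn3 full, and 1223, 1112 and 1175 in nrxn3 tmr, against 1289, 1404 and 1417 in wt (log2 fold changes -0.25 and -0.23, adjusted p = 0.0233 and 0.0443). crema, a gene of the CREM family of cAMP-responsive factors, was lower in nrxn2 full, with 499, 372 and 529 against 817, 1029 and 742 in wt (-0.89, adjusted p = 0.0449). cremb passed in nrxn2 full (adjusted p = 0.00999), where it had no count in any library, against 5.08, 18.8 and 10.3 in wt.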

How the data were processed

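Poly(A) RNA of 24 whole-brain libraries (8 genotypes, 3 libraries each) was prepared with a stranded mRNA kit. The authors trimmed the reads with Trimmomatic 0.39, used STAR 2.7.11b for alignment to GRCz11 and deposited the raw gene counts it gave, with FastQC 0.11.9 and MultiQC 1.9 for quality control. The sources used here do not give the strand column of STAR that was kept, so genes that overlap on opposite strands may share reads. No column of the count table was left unused.

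Genotypes came from the labels. Counts were divided by DESeq2 1.42.0 size factors, and the 23641 of 37241 genes that reached 10 counts in 3 or more libraries were tested by edgeR 4.0.16 (quasi-likelihood, robust, R 4.3.3) in 1 fit over all 24 libraries with a coefficient per genotype. Within each comparison the Benjamini-Hochberg adjustment ran over all genes tested, and calls needed an adjusted p below 0.05. Library sizes of 28512102 to 39342435 counts set the counting precision, and no pair of libraries of the same genotype agreed within sampling noise. Pairs from different genotypes were not compared in this way. Log2 values for spreads and correlations used a pseudocount of 1. Correlations had two-sided p-values from 100000 permutations and were run over 19 libraries, because the gap in nr1d1 divides the 24 planned. The scripts were tested on simulated data.

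Every member was accounted for. Members called against wt, in the mean of the 7 lines or between full and tmr lines were given by library, as were further pathway genes called against wt, and others by range. The members and lists were chosen with earlier results of these data known. Names came from a table of Ensembl identifiers. The libraries of all lines entered every fit, but 4 lines are described, and the results of the other lines and of a few genes are not reported here. The alternatives tried were other count filters, TMM factors, DESeq2's own Wald test, a replicate block, fits to 6 libraries, each library left out, and, added after seeing the data, all tests without 5 libraries that stand apart.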

Additional observations from a re-analysis of the deposited data

How the results depend on the processing

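Of 1001 alternative values none reversed a direction, but only the fold changes and correlations among them could. Counts of called genes and the joint tests have no direction. Of the counts of called clock genes and correlated pairs 246 stayed within 1.5 times and 30 moved, and of the single-gene results 680 kept their call and 45 lost it. For a line against wt, most alternatives left out a library of neither group, which enters the comparison only through the shared fit. These totals therefore do not measure how far a call depends on the libraries of its own groups. Without the 5 libraries apart, the number of members called was 5 in nrxn3 full and 1 in nrxn3 tmr against wt, 4 for nrxn2 and 0 for nrxn3 in full against tmr (5 of them at an unadjusted p under 0.05 by edgeR in nrxn3), 10 among the 8 genotypes and 9 among the 7 lines. In fits to 6 libraries it was 1 in nrxn2 tmr and 0 in nrxn3 tmr, where 4 had an unadjusted p under 0.05 by edgeR. The causes were not tested.

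Same-numbered libraries of different genotypes did not deviate together (median r = -0.00834 over 53 pairs, of which 1 was over 0.1). This r ran over the 17466 genes with a mean of at least 50 normalised counts, of which 155 had the 5 libraries at one end. It therefore cannot say whether the clock genes vary with the replicate numbers. With the numbers as a replicate block the counts were 17 among the 8 genotypes (47.2% of members, against 22.6% of all genes) and 15 among the 7 lines (41.7%, against 20.6%).

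With each library left out in turn, the number of members called ranged over 1 to 5 in nrxn2 full, 1 to 3 in nrxn2 tmr, 3 to 4 in nrxn3 full, 2 to 2 in nrxn3 tmr and 2 to 3 in the mean of the lines. It ranged over 1 to 4 and 0 to 1 for full against tmr of nrxn2 and nrxn3, 4 to 8 among the 8 genotypes and 3 to 7 among the 7 lines. Each number above that with all libraries was reached without replicate 1 of nrxn2 full, except in nrxn3 full, where it was reached without wt replicate 1. The 1 correlated pair was lost, leaving 0, on log2 CPM values with TMM factors and without the 3 wt libraries. Low counts kept npas2 from being tested. With a filter of 50 counts in 3 libraries 34 members were tested, without bmal2 (1 to 15 counts) and nfil3 (12 to 51).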

Other observations

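Of the genes with a mean of at least 50 normalised counts, 155 had the same 5 libraries at one end, of which 20 were members. Among the others, low in the 5 were cry-dash, a light-induced repair photolyase gene, at 219 to 309.6 normalised counts against 997 to 1704 in the 19 others, DDB2, a DNA-damage recognition gene, at 19.1 to 32.5 against 66.4 to 131, and ciartb, the paralog of ciarta, at 178 to 329 against 628 to 882. HSF2, a heat shock factor gene, lay at 878 to 1437 against 3581 to 4759.9 and ZNF395, a zinc finger gene, at 843 to 1083 against 2461 to 3551.

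High in the 5 were rorcb, the paralog of rorca, at 2449 to 3245 against 667 to 1512, the cryptochrome genes cry3b at 6128 to 6524 against 2720.2 to 3831 and cry4 at 1238 to 1444 against 763 to 1012, and OPN3, an opsin gene, at 233 to 305 against 91.5 to 196. Ranked by Pearson's r over all 24 libraries, which follows the same split, the genes most like nr1d1 were cry-dash, ZNF395, si:ch211-132b12.7, ciartb and HSF2, those most like BMAL1 i were rorcb, cry4, IMPDH1, cry3b and DCAF5, and those most like BMAL1 ii were BTBD10, rsrp1, ARAF, LARP7 and PRKRA. These genes were named after their values had been seen.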
